A study of Danio rerio with 8 samples.

Results

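The genes that carry pyruvate into mitochondria, run the citric acid cycle and shuttle reducing equivalents across the inner membrane were compared between *tbx5a*+ and *tbx5a*- cardiomyocytes of the adult zebrafish ventricle. The set held 42 gene names, and rows of the expression table were taken by Ensembl symbol. It matched 42 of the table's 31388 rows. One name, *pcxa*, had no row of its own, and 2 rows bore the symbol *MPC2*. The pairs of rows named *PDK2* and *PDK3* could not be told apart as the a and b paralogs, so they are given with their Ensembl numbers. *mdh1aa* and *mdh1ab* were taken from the rows named *MDH1* and *mdh1b*, which are listed as their synonyms. *DLD* is dihydrolipoamide dehydrogenase (ENSDARG00000008785) and not the Notch ligand of similar name.

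The fish were 6 to 9 months old and carried 2 reporters, *tbx5a:GFP* and *myl7:nuc-dsRed*. The GFP reporter is a bacterial artificial chromosome with the *tbx5a* regulatory region, and the *myl7* promoter restricts the nuclear red marker to cardiomyocytes. Cells positive for both colours were sorted as *tbx5a*+ cardiomyocytes, and cells with the red marker alone as *tbx5a*- cardiomyocytes. In this ventricle the first are trabecular cells. The second come from the outer cortical layer and from a basal trabecular region without GFP, so they are a mixture. Each of the 4 replicates pooled 5 hearts and gave 1 library per population, numbered 2, 8, 9 and 10, and no injury or treatment is named for these fish. The atrioventricular canal was cut away before dissociation. Values are given below in that order of replicates. The p-values measure the spread between these 4 pools, and in bulk RNA a change in the share of a cell type cannot be told apart from a change of its RNA content.

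Pyruvate from glycolysis or lactate enters the mitochondrial matrix through a carrier made of Mpc1 and Mpc2. The pyruvate dehydrogenase complex converts it to acetyl-CoA and is switched off by dedicated kinases and on again by phosphatases. The citric acid cycle oxidises acetyl-CoA and delivers electrons to the respiratory chain, and the malate-aspartate shuttle brings in electrons from cytosolic NADH. In mammals, the adult heart relies on the cycle and the respiratory chain for most of its ATP.

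The populations were as labelled for the sorted gene. *tbx5a* had normalized values of 3197 to 4919 in *tbx5a*+ libraries and of 90.5 to 442 in *tbx5a*- libraries. Estimated reads were 8076611 to 9491799 in *tbx5a*+ and 7149212 to 9203851 in *tbx5a*- libraries, with 13706 to 14983 and 11329 to 13793 genes above 0. The 10 rows of the cardiomyocyte marker list summed to 408451 to 490001 in *tbx5a*+ and 401181 to 479269 in *tbx5a*- libraries. Summed values of endothelial and endocardial markers (9 rows) were 122 to 224 in *tbx5a*+ and 93.6 to 293 in *tbx5a*- libraries. Those of epicardial and fibroblast markers (10 rows, 4 of them at 0 throughout) were 85.2 to 107 and 50.7 to 320. Of these rows, *col1a1a* and *wt1b* were above 0 in all 8 libraries. They reached 151 and 135, both in the *tbx5a*- library of replicate 2. Smooth muscle and mural markers (7 rows) summed to 426 to 899 in *tbx5a*+ and 720 to 2881 in *tbx5a*- libraries. Of these rows 2 were called lower in *tbx5a*+ cardiomyocytes, *acta2* (log2 fold change -6.67) and *TAGLN* ENSDARG00000045408 (-2.15). The other rows tested did not follow, with 0.23 for *CSPG4*, 0.80 for *TAGLN* ENSDARG00000033466 and -0.37 for *MYH11* ENSDARG00000100972. The authors found actin cytoskeleton genes among those specific to *tbx5a*- cardiomyocytes. Erythroid markers (5 rows, 3 at 0 throughout) reached at most 26.8 and 26.3, and thrombocyte markers (2 rows, 1 at 0 throughout) 17.5 and 32.0. Leukocyte markers (6 rows, 3 at 0 throughout) reached 23.6 and 41.2. Among them, *ptprc* was highest in a *tbx5a*- library (31.7) and *SPI1* in a *tbx5a*+ library (16.5). The part of these cell types in the results below was not tested.

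None of the pathway genes was called different between the populations, although most of them had somewhat higher values in *tbx5a*+ cardiomyocytes. Calls were made with limma on log2(value + 1) and needed at least a 2-fold change together with a p that did not exceed 0.05 after Benjamini-Hochberg adjustment over all genes tested. Of the 42 rows, 37 had 1 CPM or more (a count scaled to the total of its library) in 2 or more libraries and entered the test, and 33 of these were above 0 in all 8 libraries. The test called 0 of the 37 higher and 0 lower, where 0.0072% and 0.187% of the 13895 genes tested were called in these directions. Neither limma-voom nor limma with replicate as a blocking factor called any of the 37. Over all genes limma-voom called 0.0216% higher and 0.151% lower, and the blocked fit called 0.137% and 0.281%. The lowest adjusted p among the 37 was 0.461 with limma, 0.324 with limma-voom and 0.0522 with blocking. With limma, 3 of the 37 had at least a 2-fold change, and 0 of the 33 above 0 in every library. The 3 were *PDK3* ENSDARG00000014527, *ogdhb* and *aco1*, each at 0 in at least 1 library. Their *tbx5a*+ means were 1.63, 1.83 and 1.23 times their *tbx5a*- means, so the 2-fold change held on the log scale only. For the other tested genes the fold criterion was enough by itself to keep out a call, whatever their p. The adjusted p was above 0.05 for each of the 37 as well. At an unadjusted p under 0.05, limma had 9 of the 37 higher and 0 lower, against 4.62% and 2.44% of all genes tested, and limma-voom also had 9. Blocking gave 15 of the 37 higher, against 6.28% of all genes. The log2 fold change was above 0 for 34 of the 37 (31 with values divided by the library total), against 61.3% of all genes. Its median over the 37 was 0.42, against 0.20 over all genes tested (0.30 and 0.09 with values divided by the library total), and among genes above 0 in every library it was 0.41 for the 33 and 0.10 for all 8105. Of these 33, 30 lay above 0, against 57.5% of the 8105. In all 4 pairs, 17 of the 37 were higher and 0 lower in *tbx5a*+ cardiomyocytes, where 9.54% and 5.38% of all genes did so. These genes were read from the same 8 libraries and are not independent of each other, so their counts are a description.

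The precision of limma without the replicate block was enough to bound some of the differences and not others. For 20 of the 37 genes the 95% interval of the log2 fold change lay between -1 and 1, so that no 2-fold difference lay inside it, against 15.5% of all genes tested. The intervals of the other 17 reached past 2-fold, and 4 of these genes were at 0 in at least 1 library. Among the 17 were *cs*, *dlst*, *suclg2*, *sucla2*, *got2b*, *slc25a11* and *slc25a12*. Blocking by replicate gave each of these genes a smaller standard error. It was 0.155 against 0.215 for *cs*, and 0.420 against 0.424 for *suclg2*. Intervals with blocking were not taken, so these counts hold only for the fit without it. In the citric acid cycle, 5 of 14 genes had an interval within 2-fold.

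**Figure D1:**
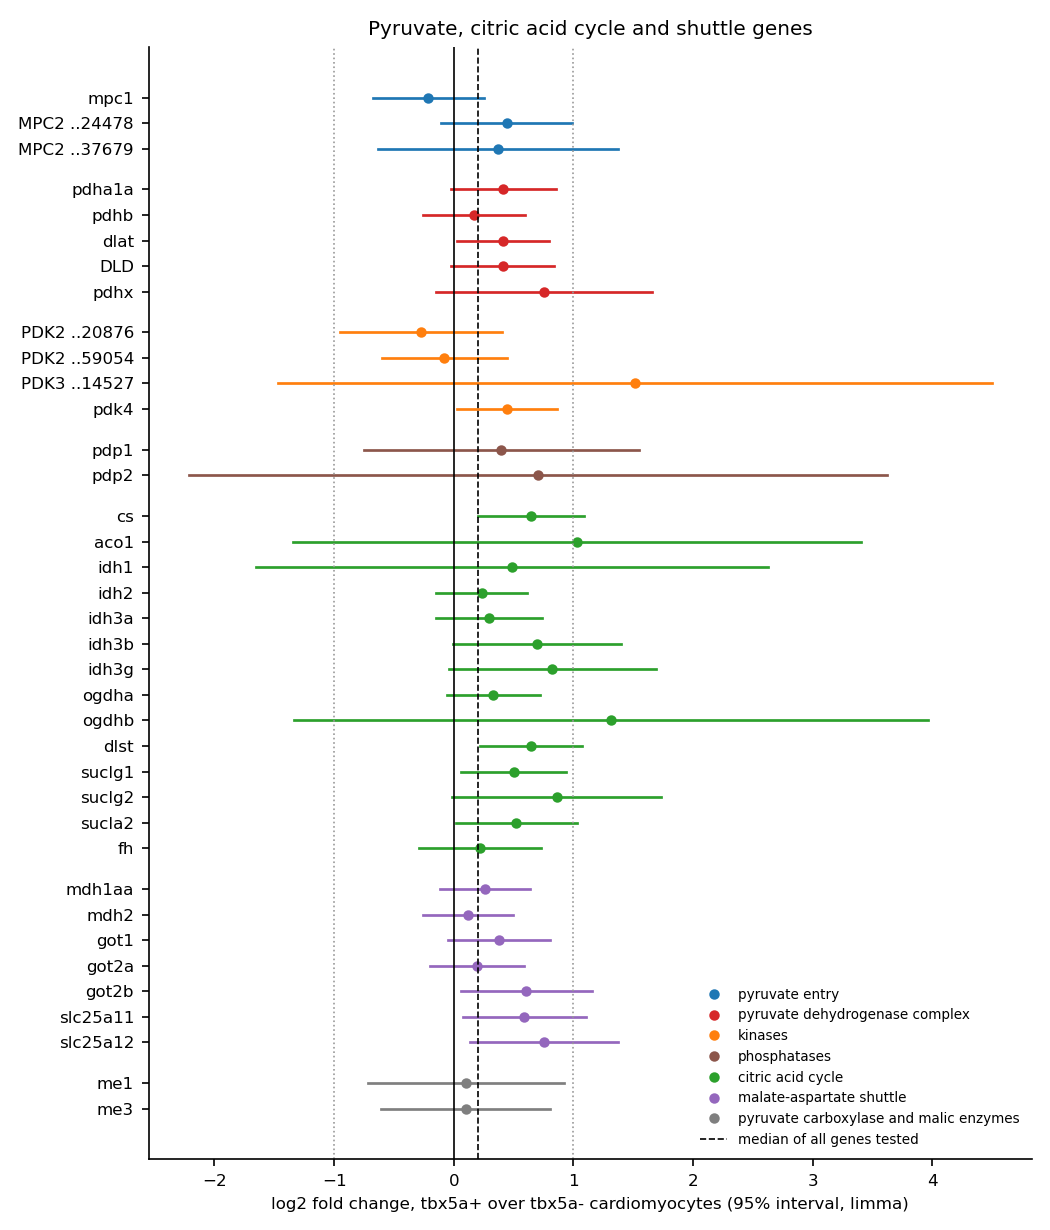
Log2 fold change (x axis) of *tbx5a*+ over *tbx5a*- cardiomyocytes with its 95% interval from limma for the 37 pathway genes tested, by role; dotted lines mark 2-fold, and rows that share a symbol carry the last digits of their Ensembl number. Points lie above 0 for 34 of the 37 (31 with values divided by the library total), and every *tbx5a*+ excess of at least 2-fold has an interval that spans 0.

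The carrier subunits did not differ in one direction. *mpc1*, which encodes the subunit Mpc1, had values of 1235, 1522, 1430 and 1376 in *tbx5a*+ libraries and 1883, 2283, 1298 and 1193 in *tbx5a*- libraries. The *tbx5a*+ libraries lay close together, and the *tbx5a*- libraries fell on both sides of them. The log2 fold change was -0.21 (standard error, SE, 0.22, limma adjusted p = 0.852). The 2 rows named *MPC2*, for its partner subunit, had log2 fold changes of 0.44 (ENSDARG00000024478) and 0.37 (ENSDARG00000037679).

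Of the genes of the pyruvate dehydrogenase complex, *dlat*, which encodes the acetyltransferase core E2, had 4808, 5256, 4293 and 5325 in *tbx5a*+ libraries and 3334, 4366, 3188 and 3977 in *tbx5a*- libraries. The populations overlapped only in that the lowest *tbx5a*+ library lay just below the highest *tbx5a*- library, and every pair was higher in *tbx5a*+ cardiomyocytes. The means were 4921 ± 477 and 3716 ± 552 (SD, n = 4 each). The log2 fold change of 0.41 (SE 0.19) did not pass (limma adjusted p = 0.694). The other subunits tested also had fold changes above 0. They were 0.42 for *pdha1a* and 0.17 for *pdhb*, which encode the alpha and beta subunits of the E1 dehydrogenase, 0.41 for *DLD*, the E3 subunit, and 0.75 for *pdhx*, which anchors E3. *pdha1a* and *DLD* were higher in *tbx5a*+ cardiomyocytes in 4 of 4 pairs, *pdhb* in 3 and *pdhx* in 2. *pdha1b*, the second E1 alpha gene, was listed at 0 in all 8 libraries, which left *pdha1a* as the one of this pair with reads in these cells.

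Of the genes for the kinases that switch the complex off, 4 were tested and 0 was called, and the *PDK2* rows ranged more widely over the replicates than their population means differed. *pdk4*, a kinase gene induced by fasting and fatty acids in mammals, had 5693, 5759, 4267 and 4751 in *tbx5a*+ libraries and 4087, 4909, 2705 and 3566 in *tbx5a*- libraries. Each *tbx5a*+ library exceeded the *tbx5a*- library of its own replicate, but the populations overlapped, and the log2 fold change of 0.44 (SE 0.20) did not pass (limma adjusted p = 0.700).

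The *PDK2* row with the higher values, ENSDARG00000059054, had 6707, 13713, 7394 and 6370 in *tbx5a*+ libraries and 5438, 13701, 8197 and 8805 in *tbx5a*- libraries. Both libraries of replicate 8 stood far above the other 6 and were nearly equal to each other. The log2 fold change was -0.08 (SE 0.25, 95% interval -0.60 to 0.44, limma adjusted p = 0.972), and its sign changed when the *tbx5a*+ library of replicate 2 or 10 or the *tbx5a*- library of replicate 8 was left out (0.01, 0.04 and 0.15). The other *PDK2* row, ENSDARG00000020876, had 606, 1121, 1316 and 1069 in *tbx5a*+ libraries and 511, 1761, 2099 and 1080 in *tbx5a*- libraries. Here the libraries of replicate 2 were the lowest of both populations, and the log2 fold change was -0.27 (SE 0.33, limma adjusted p = 0.873). It was -0.68 without the *tbx5a*- library of replicate 2 and -0.003 without that of replicate 9.

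The remaining kinase genes were near the limit of detection. One *PDK3* row, ENSDARG00000014527, had 7.19, 8.83, 16.2 and 0 in *tbx5a*+ libraries and 19.7, 0, 0 and 0 in *tbx5a*- libraries. These are 33 estimated reads over the *tbx5a*+ libraries and 18 over the *tbx5a*- libraries, all of the 18 from 1 library, and the log2 fold change of 1.52 (SE 1.45, limma adjusted p = 0.838) depends on the libraries at 0. The other *PDK3* row, ENSDARG00000099791, was listed at 0 throughout. *pdk1*, a kinase gene induced by hypoxia in mammals, had at most 1.96 in *tbx5a*+ libraries, and in *tbx5a*- libraries it was listed at 0 except for 15.5 in replicate 10. It did not enter the test.

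The phosphatase genes were low as well. *pdp1*, which encodes the calcium-stimulated phosphatase, had 152, 51.0, 47.8 and 164 in *tbx5a*+ libraries and 74.6, 101, 52.2 and 50.7 in *tbx5a*- libraries. The *tbx5a*+ libraries of replicates 2 and 10 were about 3 times as high as those of 8 and 9, and the log2 fold change of 0.40 (SE 0.56) did not pass (limma adjusted p = 0.899). *pdp2*, for the second phosphatase, had 0, 5.89, 6.69 and 11.3 in *tbx5a*+ libraries and 0, 12.3, 0 and 6.01 in *tbx5a*- libraries, with a log2 fold change of 0.70 (SE 1.41, limma adjusted p = 0.946).

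**Figure D2:**
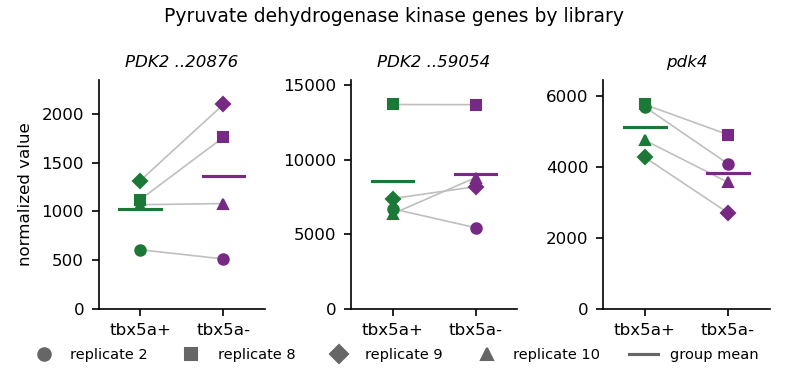
Normalized values (y axis) of the 3 kinase genes with more than a few reads in *tbx5a*+ (left) and *tbx5a*- (right) libraries; symbols are replicates, grey lines join libraries of a replicate and bars are means of 4 libraries. For *PDK2* ENSDARG00000059054 both libraries of replicate 8 lie above all others, at 13713 and 13701, and *pdk4* is higher in *tbx5a*+ cardiomyocytes in 4 of 4 pairs.

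All 14 citric acid cycle genes had log2 fold changes above 0, also with values divided by the library total, with a median of 0.58, and 0 of 14 was called. *cs*, for citrate synthase, which joins acetyl-CoA to oxaloacetate, had 4049, 3165, 3893 and 5908 in *tbx5a*+ libraries and 2221, 2416, 2536 and 3647 in *tbx5a*- libraries. The *tbx5a*- library of replicate 10 was the only one to reach the *tbx5a*+ range, and replicate 10 was highest in both populations. The means were 4254 ± 1169 and 2705 ± 642 (SD, n = 4 each), and the log2 fold change was 0.64 (SE 0.22). The limma adjusted p was 0.506, or 0.0522 with blocking.

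*dlst*, which encodes the succinyltransferase core of the oxoglutarate dehydrogenase complex, had 2965, 3796, 3518 and 3727 in *tbx5a*+ libraries and 2329, 2388, 1533 and 2872 in *tbx5a*- libraries. The lowest *tbx5a*+ library exceeded the highest *tbx5a*- library, which gives the smallest p that an exact permutation test of 4 against 4 allows (two-sided p = 0.0286). That test shuffles all 8 libraries and does not keep the pairs. A test that flips the signs of the 4 pair differences can give no p below 0.125. The log2 fold change was 0.65 (SE 0.21, 95% interval 0.22 to 1.08), with an adjusted p of 0.461 from limma (0.0888 with blocking). Of the 37 genes, 2 had populations that did not overlap, both higher in *tbx5a*+ cardiomyocytes, where 2.32% of all genes tested were separated in that direction and 1.65% in the other.

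The second was *suclg2*, for the GTP-forming beta subunit of succinyl-CoA ligase, which is singled out here after its values were seen. It had 154, 138, 140 and 171 in *tbx5a*+ libraries and 66.9, 81.8, 69.95 and 120 in *tbx5a*- libraries, a log2 fold change of 0.86 (SE 0.42, limma adjusted p = 0.713). The other 2 subunits of this ligase differed in the same direction in each pair. *suclg1*, for the alpha subunit, had 1661, 1716, 1669 and 2202 in *tbx5a*+ libraries and 1216, 1161, 1090 and 1700 in *tbx5a*- libraries. Replicate 10 was the highest in both populations, and the log2 fold change was 0.50 (SE 0.21, limma adjusted p = 0.669). *sucla2*, for the ATP-forming beta subunit, had 1722, 1123, 1157 and 1706 in *tbx5a*+ libraries and 1238, 948, 631 and 1211 in *tbx5a*- libraries. Its populations overlapped, and the log2 fold change was 0.52 (SE 0.25, limma adjusted p = 0.700).

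*idh2*, for the mitochondrial NADP-dependent isocitrate dehydrogenase, had 12146, 11328, 11847 and 14991 in *tbx5a*+ libraries and 9133, 9900, 12297 and 11518 in *tbx5a*- libraries. Its log2 fold change was 0.23 (SE 0.18, 95% interval -0.15 to 0.61, limma adjusted p = 0.783), so a 2-fold difference lay outside the interval. The 3 subunits of the NAD-dependent enzyme, which drives the cycle, had 0.29 for *idh3a*, 0.70 for *idh3b* and 0.83 for *idh3g*. The last 2 were higher in *tbx5a*+ cardiomyocytes in 4 of 4 pairs. The other cycle genes with high values were *ogdha*, the E1 subunit of the oxoglutarate complex (0.33, higher in 4 of 4 pairs), and *fh*, fumarase (0.22, higher in 2 of 4 pairs). *ogdhb*, *aco1* and *idh1* had values of at most 86.5 in any library, and the last 2 encode enzymes of the cytosol. Their log2 fold changes of 1.31, 1.03 and 0.48 had standard errors of 1.29, 1.15 and 1.04, and those of *aco1* and *idh1* changed sign when 1 library was left out. For *aco1* it was -0.34 without the *tbx5a*- library of replicate 2, in which it was listed at 0, and for *idh1* it was -0.11 without the *tbx5a*+ library of replicate 10.

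**Figure D3:**
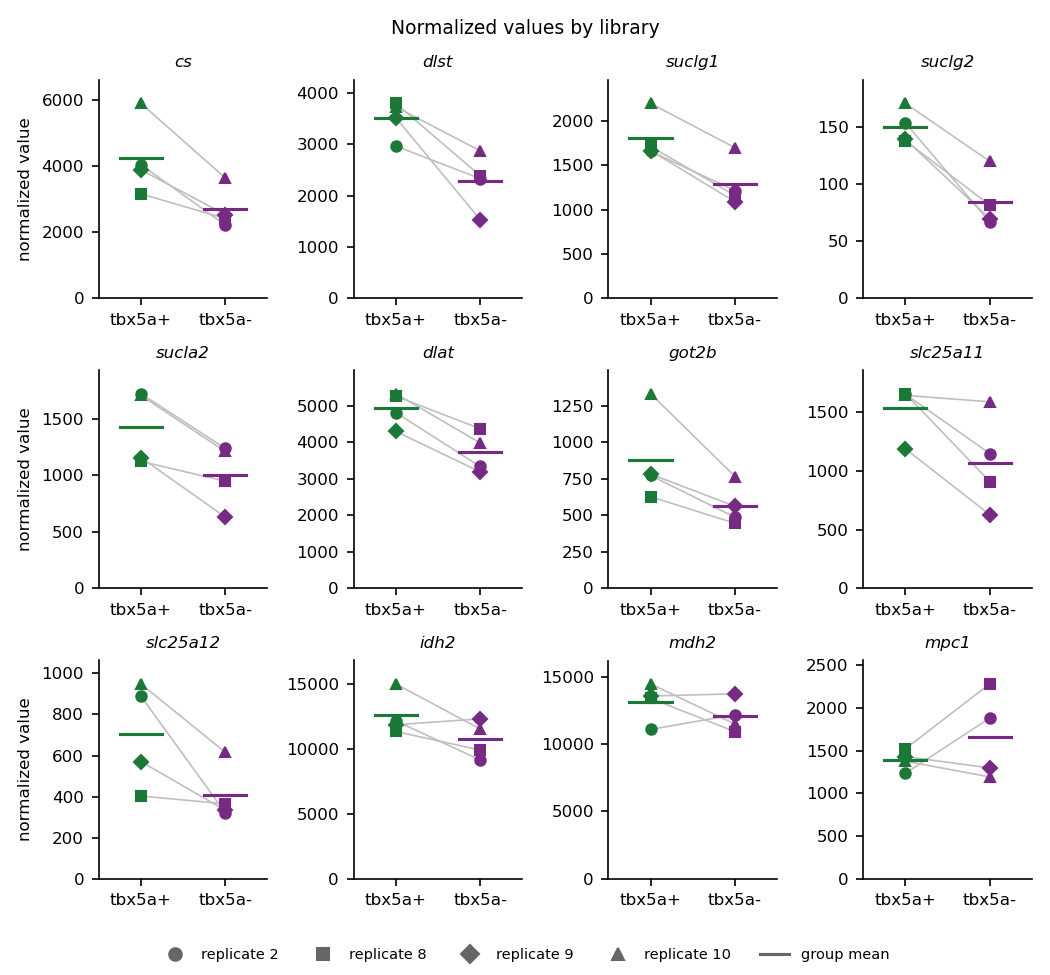
Normalized values (y axis, from 0) of 12 pathway genes in *tbx5a*+ (left) and *tbx5a*- (right) libraries; symbols are replicates, grey lines join libraries of a replicate and bars are means of 4 libraries. The populations do not overlap for *dlst* and *suclg2*, and they overlap for the other 10 genes drawn.

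The 7 tested genes of the malate-aspartate shuttle had log2 fold changes above 0, except that *mdh2* was below 0 with values divided by the library total. Their median was 0.38, and 0 of 7 was called. Among them the carriers of the inner membrane had larger fold changes than most of the enzymes. *slc25a12*, for the aspartate-glutamate carrier aralar, had 889, 402, 571 and 949 in *tbx5a*+ libraries and 321, 365, 333 and 616 in *tbx5a*- libraries. The *tbx5a*- library of replicate 10 lay apart from the other 3 and within the *tbx5a*+ range. The log2 fold change was 0.75 (SE 0.30, limma adjusted p = 0.637). *slc25a11*, for the oxoglutarate-malate carrier, had 1650, 1655, 1186 and 1641 in *tbx5a*+ libraries and 1146, 907, 626 and 1585 in *tbx5a*- libraries. Here 3 *tbx5a*+ libraries were nearly equal and replicate 9 was the lowest of both populations, with a log2 fold change of 0.59 (SE 0.25, limma adjusted p = 0.670). *slc25a13*, which encodes citrin, the second aspartate-glutamate carrier, was listed at 0 in 7 of the 8 libraries and at 2.94 in the *tbx5a*+ library of replicate 8.

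*got2b*, 1 of 2 genes for the mitochondrial aspartate aminotransferase, had 772, 627, 782 and 1332 in *tbx5a*+ libraries and 487, 446, 562 and 765 in *tbx5a*- libraries. The *tbx5a*+ library was the higher one in each pair, and the log2 fold change was 0.61 (SE 0.27, limma adjusted p = 0.673). Its paralog *got2a* had a log2 fold change of 0.20, and the cytosolic partner *got1* had 0.38. *mdh2*, for the mitochondrial malate dehydrogenase that serves both cycle and shuttle, had 11095, 13416, 13585 and 14486 in *tbx5a*+ libraries and 12204, 10929, 13746 and 11496 in *tbx5a*- libraries. The populations covered much the same range, and the log2 fold change of 0.12 (SE 0.18, 95% interval -0.25 to 0.49, limma adjusted p = 0.911) was -0.001 when values were divided by the library total. *mdh1aa*, for the cytosolic enzyme, had a log2 fold change of 0.26 with the same sign in each pair. The row for *mdh1ab* was listed at 0 throughout.

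Of the malic enzymes, which convert malate to pyruvate, *me3* had 267, 272, 296 and 238 in *tbx5a*+ libraries and 135, 234, 298 and 413 in *tbx5a*- libraries. The *tbx5a*+ libraries lay close together inside the wide range of the *tbx5a*- libraries, and the log2 fold change was 0.10 (SE 0.34, limma adjusted p = 0.974). That of *me1*, for the cytosolic enzyme, was also 0.10. Both were near 0 and below it, at -0.02 and -0.01, when values were divided by the library total. For pyruvate carboxylase, which makes oxaloacetate from pyruvate, the 2 rows named *PC* could not be assigned to *pcxa*. One of them, ENSDARG00000098766, passed the filter and had values of 22.6 to 117 in *tbx5a*+ and 0 to 94.0 in *tbx5a*- libraries.

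The differences were also read by the level of the genes. Normalized values are not divided by gene length, so the bands that follow order the genes by reads and not by transcripts. The 5 genes with a mean value over 5000 had a median log2 fold change of 0.20, against 0.15 for the 163 genes tested in that band. The 16 genes between 1000 and 5000 had a median of 0.41, against 0.10 for all 580, and the 10 genes between 100 and 1000 had 0.65, against 0.08 for all 3628. In the 6 genes under 100 it was 0.87, against 0.34 for all 9524, and 4 of the 6 were at 0 in at least 1 library. Without the *tbx5a*- libraries of replicates 2 and 9 the order of the bands did not hold. The medians were then 0.22 over 5000, 0.25 between 1000 and 5000, 0.32 between 100 and 1000, and 0.14 for the 5 genes under 100 that were still tested. Those of all genes in the same bands were then 0.14, 0.09, 0.04 and 0.004.

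The direction was shared by the 4 pairs, with exceptions in each. The *tbx5a*+ library was higher for 30 of the 37 genes in replicate 2, for 28 in replicate 8, for 26 in replicate 9 and for 29 in replicate 10. Of all genes tested, 53.9%, 49.5%, 55.3% and 48.2% were higher in these pairs. The median difference over the 37 genes was 0.48, 0.22, 0.43 and 0.38 on the log2 scale in these pairs. Over all genes tested the median difference was 0.13, 0, 0.20 and 0. Replicate 8 thus had the smallest median over the 37 genes, with the shift of all genes not subtracted. The pair differences lay close together for *suclg1* (0.37 to 0.61), *dlat* (0.27 to 0.53) and *got2b* (0.48 to 0.80). They were wide for *pdhx* (-0.44 to 2.12), which anchors the E3 subunit, and for the phosphatase gene *pdp1* (-0.97 to 1.67).

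**Figure D4:**
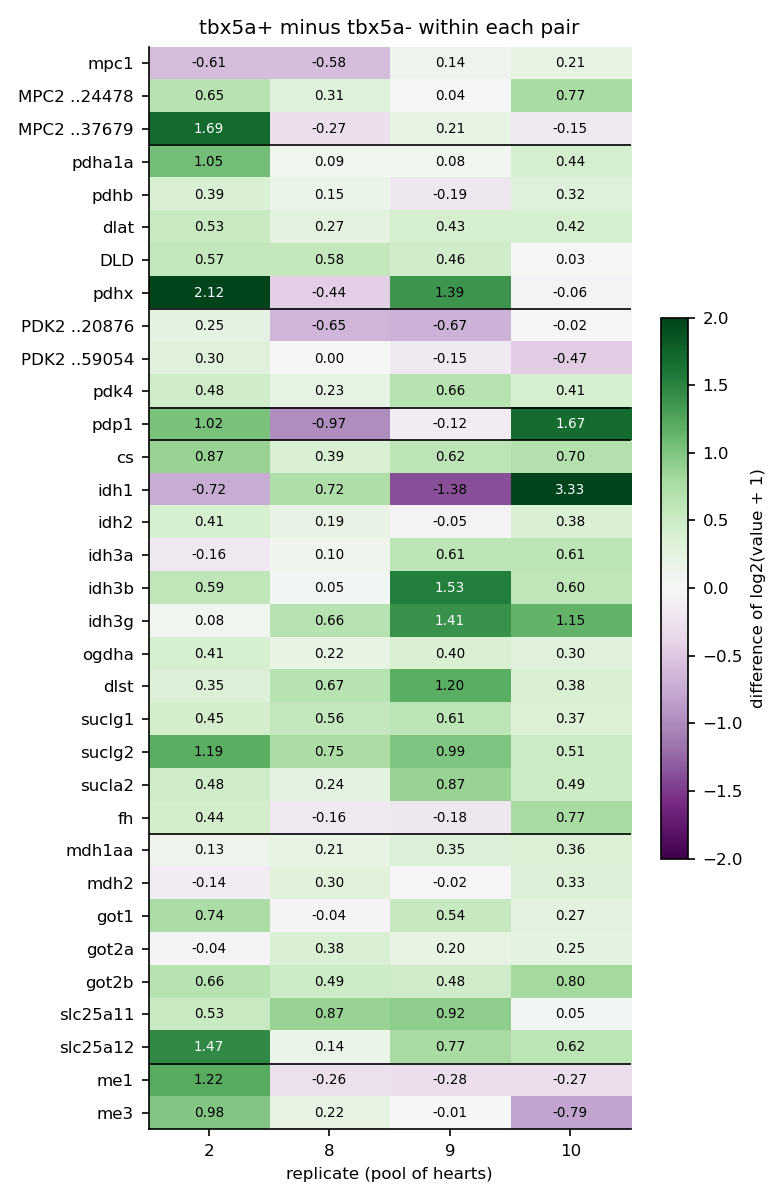
Difference of log2(value + 1) between the *tbx5a*+ and the *tbx5a*- library of each replicate (columns) for the 33 pathway genes above 0 in every library (rows, in blocks by role); green is higher in *tbx5a*+ cardiomyocytes, and the colour scale ends at 2. Of the 33 rows, 17 are green in all 4 columns, among them *cs*, *dlst*, *suclg1*, *suclg2* and *sucla2*. The other rows mix both colours, among them *mpc1*, *PDK2*, *me1*, *me3* and the cycle genes *idh1*, *idh2*, *idh3a* and *fh*.

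The level of the pathway genes also differed among libraries of 1 population. Over the 33 genes above 0 in every library, the median deviation from the 8-library mean was 0.18, 0.09, -0.01 and 0.41 in *tbx5a*+ libraries and -0.31, -0.20, -0.41 and 0.05 in *tbx5a*- libraries, on the log2 scale. The *tbx5a*- library of replicate 10 thus lay above the *tbx5a*+ library of replicate 9. The *tbx5a*- libraries of replicates 9 and 2, the lowest of the 8 for these genes, were also those with the fewest genes above 0 (11329 and 12225), and replicate 10, the highest of its population, had the most (13793). Among *tbx5a*+ libraries this order did not hold, since replicate 10 was the highest with 13837 genes above 0 and replicate 9 the lowest with 14937. Both low *tbx5a*- libraries also had the highest values of the 2 smooth muscle and mural rows called lower in *tbx5a*+ cardiomyocytes. *acta2*, smooth muscle actin, had at most 5.84 in *tbx5a*+ libraries and 284, 111, 518 and 189 in *tbx5a*- libraries, and the *TAGLN* row ENSDARG00000045408, for transgelin, had 176, 198, 144 and 437 in *tbx5a*+ libraries and 1685, 376, 2063 and 654 in *tbx5a*- libraries. Among *tbx5a*- libraries, the list's rows *CSPG4* (296), *TAGLN* ENSDARG00000033466 (39.5) and *MYH11* ENSDARG00000100972 (48.1) were highest in replicate 10. *MYH11* ENSDARG00000009782 was above 0 there only in replicate 2 (3.29), and *RGS5* was at 0 throughout. The part of library complexity, *acta2* and transgelin in the difference was not tested. Without the *tbx5a*- libraries of replicates 2 and 9, the median log2 fold change of the 36 genes then tested was 0.23, against 0.04 for all genes, 29 of the 36 were above 0, and 0 had an unadjusted p under 0.05. As a share of all values in a library, the 42 rows made up 1.13%, 1.09%, 0.974% and 1.2% in *tbx5a*+ libraries and 0.959%, 1.05%, 0.889% and 1.09% in *tbx5a*- libraries, so that the shares of the populations overlapped.

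**Figure D5:**
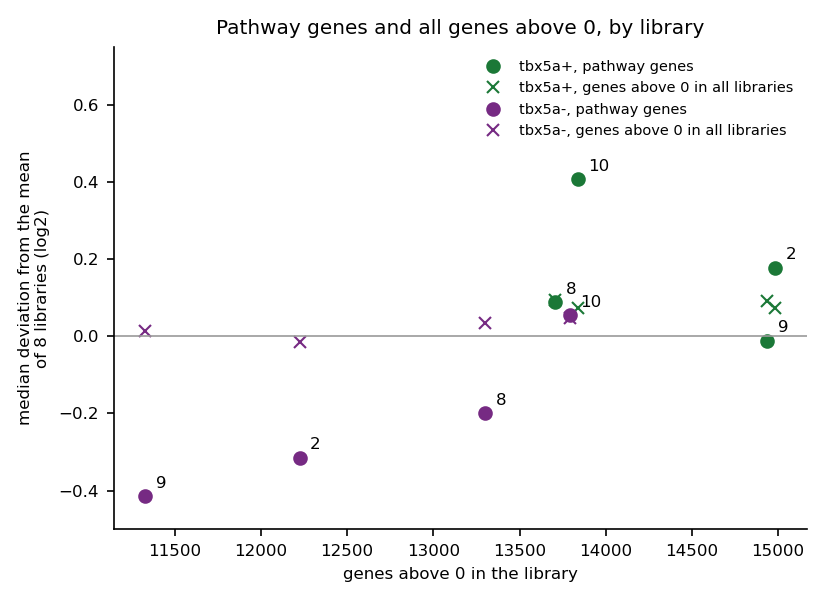
Median deviation (y axis, log2) of the 33 pathway genes above 0 in every library (circles, numbered by replicate) and of all 8105 such genes (crosses) from the mean of the 8 libraries, against the number of genes above 0 in the library (x axis). The *tbx5a*- libraries of replicates 9 and 2 lie lowest and farthest to the left, and the crosses stay within 0.1 of 0.

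The balance between related genes of the pathway was compared as a log2 ratio within each library, which hardly depends on scaling. In 8 such ratios the lowest Benjamini-Hochberg adjusted p of two-sided exact permutation tests was 0.457. A single ratio whose populations did not overlap would have had an adjusted p of 0.229 at best, so that none could pass alone, and the values are a description. The ratio of *pdk4* to the sum of the *PDK2* rows was -0.85 ± 0.44 in *tbx5a*+ libraries and -1.40 ± 0.60 in *tbx5a*- libraries (SD, n = 4 each; exact p = 0.171). The *tbx5a*+ library had the higher ratio in each pair, as was the case for that of *suclg2* to *sucla2*, at -3.21 ± 0.22 and -3.55 ± 0.45 (SD, n = 4 each; exact p = 0.229). The difference of this second ratio was 0.34, and 0.12 without the *tbx5a*- library of replicate 2. The ratio of *got2a* to *got2b* was lower in *tbx5a*+ cardiomyocytes in 4 of 4 pairs, at 2.92 ± 0.51 and 3.33 ± 0.43 (SD, n = 4 each; exact p = 0.229). That of *mpc1* to the sum of the *MPC2* rows was 0.78 ± 0.44 and 1.43 ± 0.69 (SD, n = 4 each; exact p = 0.229). The other ratios were those between the *PDK2* rows (difference -0.20), *ogdha* and *ogdhb* (-0.98), *idh2* and *idh1* (-0.25), and *me3* and *me1* (-0.005). The difference for *ogdha* and *ogdhb* was -0.13 without the *tbx5a*- library of replicate 9, in which *ogdhb* was listed at 0.

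Other genes around pyruvate and the cycle were not called either. Of 51 rows of a list of carriers, dehydrogenases and aminotransferases, 36 were tested and 0 was called. Their median log2 fold change was 0.35, against 0.20 over all genes tested, with 26 of 36 above 0, against 61.3%. An unadjusted p under 0.05 was found for 3 of 36, with higher values in the *tbx5a*+ population, against 4.62% of all genes. The succinate dehydrogenase genes of the list, for the enzyme that joins the cycle to the respiratory chain, had 0.31 for *sdha*, 0.41 for *sdhb*, -0.05 for *sdhc* and -0.14 for *SDHD* (ENSDARG00000030139).

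The 3 with the lowest unadjusted p were *gpt2*, a mitochondrial alanine aminotransferase gene (1.72), *glud1b*, for glutamate dehydrogenase, which feeds oxoglutarate into the cycle (0.59), and *LDHB* (ENSDARG00000019644, 0.39), the lactate dehydrogenase subunit typical of heart. *LDHB* had 16106, 12771, 13499 and 17630 in *tbx5a*+ libraries and 10614, 11804, 10555 and 12705 in *tbx5a*- libraries. These did not overlap, as with *glud1b*. Of the 36 tested, 2 were thus separated with higher values in *tbx5a*+ cardiomyocytes and 0 with lower, against 2.32% and 1.65% of all genes tested. The adjusted p from limma was 0.700 for *LDHB* and *glud1b* and 0.691 for *gpt2*.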

How the data were processed

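RNA-Seq libraries were amplified from 0.6 ng of RNA with an Ovation single-cell kit, and 60-base single reads were taken. The authors trimmed adaptors with cutadapt, estimated gene counts with RSEM and normalised them with EdgeR. In the submitters' processing notes the versions are CASAVA 1.8.2, RSEM 1.2.3 and build Zv9, and the methods name a later RSEM and Ensembl release, so no coordinates are printed. The deposited table holds a normalized signal per gene, not counts. Low values were mostly multiples of 1 spacing per library, and the value divided by that spacing gave estimated reads. Between 71.1% and 77.7% of values below 60 lay within 0.0051 of a multiple, too few to treat them as whole reads. The calls therefore came from limma on log2(value + 1) and not from a count model. As an alternative, limma-voom was run on these estimated reads and shares their limit.

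The filter of the methods, 1 CPM or more in 2 or more libraries, kept 13895 genes. A limma fit (version 3.58.1, R 4.3.3) of log2(value + 1) with a mean-variance trend covered all of them. It was also run on simulated data with changes of 2-fold or more and no pair effect. That run does not bear on the smaller differences described here. On this scale the added 1 draws fold changes of low genes toward 0. Where a library is at 0, the fold change can still exceed the ratio of the mean values. limma-voom on estimated reads, a robust fit, other pseudocounts, filters and scalings, the replicate block and leaving out each library were alternatives. Other steps used Python 3.11.15 with pandas 2.3.3 and scipy 1.17.1.

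The series calls the replicates paired. Deviations of same-numbered libraries from their population means correlated at 0.0890, 0.0584, 0.0428 and 0.0763 across genes, and each library correlated best with its own number. No 2 libraries of a population were alike (r of 0.818 to 0.843 in *tbx5a*+ and 0.691 to 0.777 in *tbx5a*-). The *tbx5a*- libraries thus resembled each other less. Symbols came from a table of Ensembl names and were found for 25925 of 31388 rows. Synonyms came from the RefSeq annotation GRCz12tu. Genes, lists and tests were chosen with earlier results of these data known. All 8 values were given for genes with an unadjusted p under 0.05, for the gene with the highest values in each role, and for kinases and phosphatases, while *suclg2* and *LDHB* were added with their values known. RSEM can divide reads between close paralogs, so rows of paralog pairs are uncertain in that respect. Intervals of single values were not used, and estimated reads cover counting error only.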

Additional observations from a re-analysis of the deposited data

Results flagged for a closer look

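In 5 cases a single library stood apart from the other 3 of its population by Dixon's criterion for 4 values, among 36 sets of 4 examined. For normally distributed values chance gives about 1 in 20. The genes examined were partly picked by their p in these data, so no excess is read from this count. *PDK2* (ENSDARG00000059054) had 13713 in the *tbx5a*+ library of replicate 8, against at most 7394 in the other 3, and the *tbx5a*- library of the same replicate was at 13701. *PDK3* (ENSDARG00000014527) had 19.7 in the *tbx5a*- library of replicate 2 and was listed at 0 in the other 3, a set that meets the criterion at any value above 0. *suclg1* had 2202 in the *tbx5a*+ library of replicate 10, against at most 1716. *slc25a11* had 1186 in the *tbx5a*+ library of replicate 9, against at least 1641. *slc25a12* had 616 in the *tbx5a*- library of replicate 10, against at most 365.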

How the results depend on the processing

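No pathway gene was called under any of the 18 alternatives, the replicate block included (lowest adjusted p 0.0522 with the replicate block, from limma). The adjusted p thus stayed above 0.05 in each. A call also needed a 2-fold change, which 3 of the 37 genes reached in the limma fit reported above. With the replicate block, 15 genes had an unadjusted p under 0.05, against 9 without it. The median log2 fold change of the pathway genes was 0.42. It was 0.30 with values divided by the library total, a scaling that moved the median of all genes to 0.09, and 0.23 after both low *tbx5a*- libraries, 2 and 9, were removed, an alternative added with the data known. Leaving out 1 library at a time gave 0.31 to 0.53. The first 2 of these, and the value of 0.53 without the *tbx5a*+ library of replicate 9, moved by more than the SD of the 4 pair medians, 0.11, and the cause was not tested. By direction alone, *mdh2* (-0.00083), *me1* (-0.0145) and *me3* (-0.0199) turned with values divided by the library total, and *pdp2* (-0.93), *aco1* (-0.41), *MPC2* ENSDARG00000037679 (-0.23), *me3* (-0.22) and the ratio of *ogdha* to *ogdhb* (0.0644, against -0.98) without *tbx5a*- libraries 2 and 9. Leaving out 1 library gave -0.68 to -0.003 for *PDK2* ENSDARG00000020876, -0.33 to 0.15 for *PDK2* ENSDARG00000059054, -0.18 to 0.30 for *me1* and -0.20 to 0.34 for *me3*, and for the log2 ratios -0.385 to 0.0960 between the *PDK2* rows, -0.867 to 0.253 for *idh2* to *idh1*, 0.37 to 0.83 for *pdk4* to *PDK2*, 0.12 to 0.47 for *suclg2* to *sucla2*, -0.63 to -0.24 for *got2a* to *got2b*, -0.91 to -0.41 for *mpc1* to *MPC2* and -0.213 to 0.281 for *me3* to *me1*. Ratios planned with *pdha1b*, *mdh1ab*, *slc25a13* and the second *PDK3* row were not run, since these genes were under the filter on low values.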
